A study of Mus musculus with 14 samples.

Results

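Cholesterol synthesis, uptake and efflux were followed here through 31 genes, chosen by symbol, out of 54532 gene lines in a table of raw RNA-seq counts. All 31 were found, none of them on a repeated line, and all 31 passed the filter on low counts in every comparison. The genes were grouped as 7 of the early steps from acetyl-CoA to farnesyl diphosphate and 11 of the late steps from squalene to cholesterol. Further groups were 4 that control the transcription factor SREBP2, 3 of transport inside the cell and 1 of LDL receptor breakdown, which lowers LDL uptake. The rest were 4 of efflux under the liver X receptors (LXRs) and 1 of esterification.

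The 14 samples were LT-HSCs, the long-term haematopoietic stem cells, and GMPs, the granulocyte-monocyte progenitors, obtained by sorting bone marrow from C57BL/6 mice. There were 3 AML1-ETO LT-HSC, 4 control LT-HSC, 3 AML1-ETO GMP and 4 control GMP samples. The AML1/ETO mice have the genotype Runx1-Runx1t1, the mouse form of the leukaemia fusion RUNX1-RUNX1T1, whose expression was switched on by Mx1-Cre. The Mx1 promoter answers to interferon in many cell types, so the recombinase is not limited to blood progenitors. The control mice have the genotype WT. Poly[I:C], an inducer of interferon, is listed at 5 mg/kg in 4 intraperitoneal doses for all samples, controls included, and all cells were held in DMEM with fetal bovine serum around the sort. The labels do not give the ages of the mice or the sort markers. They do not say either that the samples of a group came from separate mice, so that a p-value reflects only how these samples spread, and that spread may be technical.

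Cells obtain cholesterol by making it from acetyl-CoA or by taking up lipoproteins. When sterols in the endoplasmic reticulum run low, SCAP escorts SREBP2 to be cut and released, and the released factor raises transcription of the synthesis and uptake genes, while the INSIG proteins hold the pair back when sterols are plentiful. Oxysterols activate the LXRs, which raise transcription of the exporters ABCA1 and ABCG1 and of MYLIP, a ubiquitin ligase that marks lipoprotein receptors for breakdown. Dividing cells need cholesterol for new membrane, and LXR-driven efflux is known to restrain the expansion of haematopoietic stem and progenitor cells in mice.

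The libraries held 13210952 to 19403864 counts. Runx1t1, the fusion partner gene, had 85.4, 163 and 125 CPM in the AML1-ETO LT-HSC libraries, compared with 0 to 18.1 CPM in those of control LT-HSCs (log2 fold change 4.00 ± 1.08 (SE), edgeR adjusted p = 0.0468). In GMPs it had 26.0, 26.2 and 45.6 CPM in AML1-ETO samples, against at most 2.73 CPM in control samples (3.82 ± 0.32, edgeR adjusted p = 0.00162). CPM here are counts divided by library size, with sizes scaled by the trimmed mean of M-values (TMM). RNA of their own markers was found in both sorted types, which does not measure purity. The 10 LT-HSC genes summed to 721 to 904 CPM in AML1-ETO and 499 to 1675 CPM in control LT-HSCs. The 10 GMP genes summed to 21350 to 35270 CPM in AML1-ETO and 28750 to 32860 CPM in control GMPs, with no GMP gene at 0 there. Other lists summed higher in LT-HSCs, among them mast cell and basophil genes in AML1-ETO samples (8968 to 11240 CPM). In control samples B and plasma cell genes did so (13060 to 77010 CPM). Immunoglobulin genes held 1.92 to 10.4% of counts in control and 0.02 to 0.0964% in AML1-ETO LT-HSCs. Differences between the genotypes are given below. Control LT-HSC replicate 3 stood apart, with 12106 genes detected against 13473 to 19508 in the other libraries and with 4 of the 31 genes at 0 (Mvd, Fdps, Insig2 and Nr1h3). AML1-ETO GMP replicate 1 stood apart by its macrophage markers, which summed to 1720 CPM against 150 to 320 CPM in the other AML1-ETO GMPs. A bulk sample cannot tell fewer cells of a type from less RNA per cell.

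The first comparison asked how the pathway differed in LT-HSCs with the fusion. AML1-ETO LT-HSCs had far less RNA for Sqle and Cyp51, enzymes of the sterol branch, and more for Mylip, a brake on LDL uptake. Of the 31 genes, 4 fell (Sqle, Cyp51, Idi1 and Sc5d) and 1 rose (Mylip), where a call is an adjusted p under 0.05 from edgeR's quasi-likelihood test on the 7 LT-HSC samples, with p-values adjusted over every gene tested by Benjamini and Hochberg's method. Over all 14589 genes tested, 4.69% fell and 7.59% rose, so that 61.8% of all calls were higher (51.7% with upper-quartile scaling and 47.2% by DESeq2). The median log2 fold change was -0.65 over the 31 genes and 0.03 over all genes, or -0.78 and -0.10 with upper-quartile scaling.

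Sqle encodes squalene epoxidase, which commits squalene to sterols and is a rate-limiting step of the pathway. It had 2.98, 2.53 and 2.75 CPM in the AML1-ETO LT-HSC libraries, compared with 38.8, 32.9, 30.2 and 44.0 CPM in those of control LT-HSCs. The AML1-ETO samples lay close together and every one lay far below every control sample. The log2 fold change was -3.63 ± 0.37 (SE; 12.4-fold lower, edgeR adjusted p = 0.00148).

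Cyp51 encodes the lanosterol demethylase, a few steps further along the same branch. It had 1.91, 2.45 and 2.56 CPM in the AML1-ETO LT-HSC libraries, compared with 30.2, 19.6, 47.5 and 53.3 CPM in those of control LT-HSCs. The groups again did not overlap, and the controls spread more widely than for Sqle. The log2 fold change was -3.93 ± 0.49 (15.2-fold lower, edgeR adjusted p = 0.00295). Sqle and Cyp51 kept their calls in all 7 fits that left out 1 library, with log2 fold changes of -3.72 to -3.53 for Sqle and -4.16 to -3.72 for Cyp51.

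**Figure D1:**
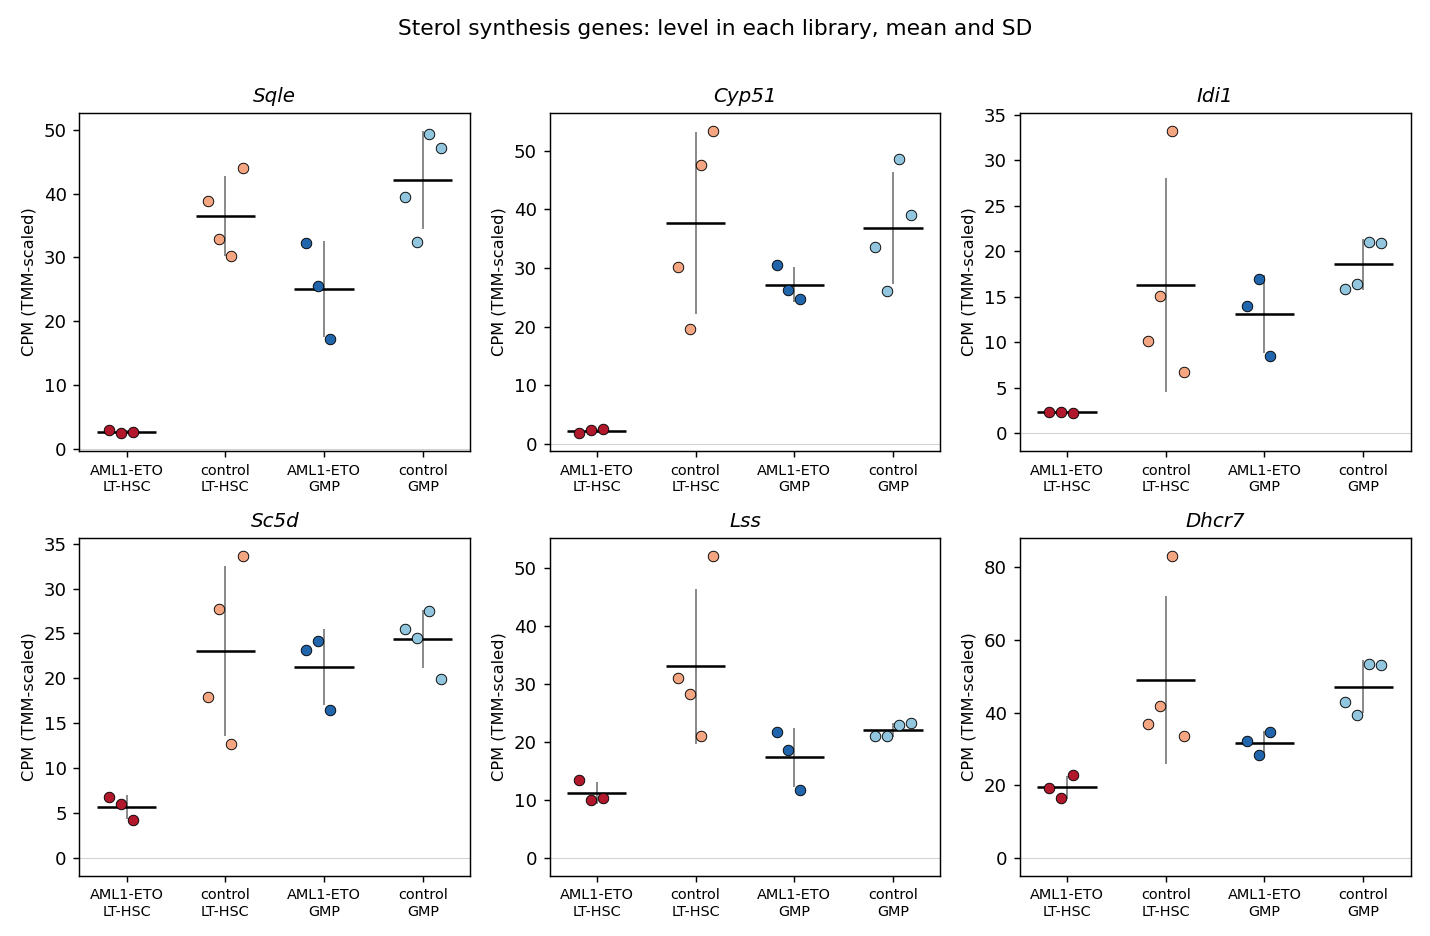
Level (TMM-scaled CPM, vertical axis) of 6 sterol synthesis genes in each of the 14 libraries, by group along the horizontal axis; horizontal lines are group means and vertical lines are 1 SD to each side. For Sqle and Cyp51 the 3 AML1-ETO LT-HSC libraries sit between 1.91 and 2.98 CPM, while the libraries of the 3 other groups sit between 17.3 and 53.3 CPM.

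Idi1 encodes isopentenyl diphosphate isomerase, which balances the isoprene building blocks of the early steps. It had 2.26, 2.30 and 2.20 CPM in the AML1-ETO LT-HSC libraries, compared with 10.1, 15.1, 33.2 and 6.72 CPM in those of control LT-HSCs. The AML1-ETO samples were nearly equal and all were below the controls, which differed widely among themselves (log2 fold change -2.74 ± 0.74, edgeR adjusted p = 0.0464). Sc5d, the lathosterol desaturase of the final steps, had 6.73, 5.98 and 4.15 CPM in the AML1-ETO LT-HSC libraries, compared with 17.9, 27.8, 12.6 and 33.6 CPM in those of control LT-HSCs. Its groups did not overlap either (-1.93 ± 0.52, edgeR adjusted p = 0.0464). The calls of Idi1 and Sc5d lay close to the threshold, and each was lost in 5 of the 7 fits that left out 1 library. Over all genes, fits without 1 AML1-ETO library called 223 to 404 higher and 111 to 285 lower, against 1107 and 684 with all 7. Idi1 lost its call without any 1 of the 3 AML1-ETO libraries, control replicate 2 or control replicate 3 (adjusted p = 0.153, 0.184, 0.159, 0.068 and 0.0514 by edgeR in that order), and its log2 fold change was -2.14 without control replicate 3. Sc5d lost its call without any 1 of the 3 AML1-ETO libraries, control replicate 2 or control replicate 4 (adjusted p = 0.119, 0.168, 0.173, 0.0843 and 0.106 by edgeR in that order). Idi1 shares near-identical stretches with Gm13502 and Gm35570 in the annotation, so its counts are uncertain.

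The whole late branch had the same sign. All 11 genes from squalene to cholesterol had negative log2 fold changes in LT-HSCs, with a median of -1.46, a range of -3.93 to -0.28, and 3 calls. Summed over the 11 genes, the level was 114, 98.2 and 96.6 CPM in the AML1-ETO LT-HSC libraries, compared with 240, 289, 330 and 334 CPM in those of control LT-HSCs. Every AML1-ETO sum was below every control sum.

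Lss, which folds squalene epoxide into lanosterol, had 13.4, 9.88 and 10.4 CPM in the AML1-ETO LT-HSC libraries, compared with 31.03, 28.2, 20.9 and 52.0 CPM in those of control LT-HSCs. Its groups did not overlap, and its adjusted p by edgeR lay just above the threshold, at 0.05 after rounding (-1.46 ± 0.41). It was called without control replicate 3 (edgeR adjusted p = 0.0186). Dhcr7, the reductase that completes cholesterol, had 19.2, 16.3 and 22.8 CPM in the AML1-ETO LT-HSC libraries, compared with 36.9, 41.8, 83.2 and 33.6 CPM in those of control LT-HSCs (-1.23 ± 0.37, edgeR adjusted p = 0.0658). The other 6 genes of the branch (Fdft1, Tm7sf2, Msmo1, Nsdhl, Hsd17b7 and Ebp) had log2 fold changes of -2.78 to -0.28 and overlapping groups. Fdft1, the squalene synthase, shares a stretch with Gm6781 and overlaps exons of Ctsb, so its counts are uncertain.

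Among the 7 early genes, 1 fell (Idi1) and 6 had negative log2 fold changes, with a median of -0.64. Their summed level was 58.8, 47.1 and 54.9 CPM in the AML1-ETO LT-HSC libraries, compared with 68.2, 89.7, 161 and 89.6 CPM in those of control LT-HSCs. Pmvk, the phosphomevalonate kinase, had 8.22, 6.21 and 7.63 CPM in the AML1-ETO LT-HSC libraries, compared with 13.2, 23.4, 40.7 and 15.9 CPM in those of control LT-HSCs, and was not called (edgeR adjusted p = 0.0894). Hmgcs1, the HMG-CoA synthase, had 16.0, 11.7 and 16.2 CPM in the AML1-ETO LT-HSC libraries, compared with 23.5, 9.46, 66.6 and 20.6 CPM in those of control LT-HSCs, and its groups overlapped. Acat2 and Fdps have near-identical copies in the annotation (Acat3 and Tcp1 for Acat2, and 4 predicted genes for Fdps), and their values are uncertain.

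Of the 4 genes that control SREBP2, none was called by edgeR, while 3 were lower at an unadjusted p under 0.05 and DESeq2 called 2 of them (Srebf2 and Insig1). The share of all genes at that unadjusted p was not counted, here or for the steps below. Srebf2 itself had 222, 200 and 226 CPM in the AML1-ETO LT-HSC libraries, compared with 442, 287, 311 and 401 CPM in those of control LT-HSCs. The groups did not overlap, with a small difference (-0.65 ± 0.21, edgeR adjusted p = 0.0833; called without control replicate 2, adjusted p = 0.0449). Insig1, a retention factor that is itself an SREBP2 target, had 37.5, 30.4 and 19.2 CPM in the AML1-ETO LT-HSC libraries, compared with 131, 42.9, 59.0 and 66.0 CPM in those of control LT-HSCs (-1.27 ± 0.43, edgeR adjusted p = 0.0982). Scap had a log2 fold change of -0.59 ± 0.24 and Insig2 of 0.58 ± 1.23.

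Mylip was the 1 gene of the 31 that rose in LT-HSCs. It had 198, 164 and 110 CPM in the AML1-ETO LT-HSC libraries, compared with 74.4, 46.1, 60.9 and 21.3 CPM in those of control LT-HSCs, and every AML1-ETO sample was above every control. The log2 fold change was 1.73 ± 0.40 (3.33-fold higher, edgeR adjusted p = 0.0287). It was no longer called without any 1 of the 3 AML1-ETO libraries or control replicate 2 (adjusted p = 0.11, 0.122, 0.0509 and 0.067 by edgeR in that order).

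Of the genes called between AML1-ETO and control, the promoters of Cyp51, Idi1, Sc5d and Mylip are shown. Sqle and Abcg1, also called, had no entry in the promoter source used. CCAAT is marked because SREBP2 acts on its targets together with NF-Y, which binds CCAAT. Mylip was described above under the LXRs instead. The windows run from 250 bases before to 50 after the RefSeq start and are of build GRCm38.p6, the same assembly as mm10; 25 of the 31 genes had one. The core of the sterol regulatory element was searched as TCACNCCAC on both strands, and was found in 1 of the 25 genes (Hmgcs1; 4.0%), against 1.44% of 27025 genes. CCAAT, on both strands, was found in 20 of 25 (80.0%), against 41.1% of the genes. Neither motif contains the other, though matches can share a letter at their ends. A match describes the letters only. The genes searched were chosen by symbol as pathway genes, whether called or not, so these shares do not bear on the calls. Capitals mark CCAAT or its reverse complement, each sequence is written 5′ to 3′ on the strand of its gene, and where the annotation places an exon in the window only 30 bases around the match nearest the start are shown. Cyp51 (minus strand, chr5:4104709-4104738) has its match 29 bases before the RefSeq start, and Idi1 (plus strand, chr13:8885576-8885605) has matches 45 and 14 bases before, of which the nearer is shown. Both stretches shown lie inside the gene as GENCODE M21 bounds it, so the RefSeq and GENCODE starts differ. Exons of any annotated gene cover 49 of the 250 bases before the RefSeq start for Cyp51 and all 250 for Idi1. Sc5d (minus strand, chr9:42264301-42264550) has a match 24 bases before the start, and Mylip (plus strand, chr13:45389492-45389741), the gene that was higher, has 3, at 190, 108 and 67 bases before.
Cyp51: cgctgtccgccaCCAATctggtcctgagat
Idi1: catggtccaaggtgccATTGGctggcgacc
Sc5d: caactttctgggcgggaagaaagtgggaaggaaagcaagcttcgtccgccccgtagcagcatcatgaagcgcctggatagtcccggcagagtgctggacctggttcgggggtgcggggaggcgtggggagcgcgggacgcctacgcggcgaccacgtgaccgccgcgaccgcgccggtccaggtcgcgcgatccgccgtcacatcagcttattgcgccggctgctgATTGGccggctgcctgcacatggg
Mylip: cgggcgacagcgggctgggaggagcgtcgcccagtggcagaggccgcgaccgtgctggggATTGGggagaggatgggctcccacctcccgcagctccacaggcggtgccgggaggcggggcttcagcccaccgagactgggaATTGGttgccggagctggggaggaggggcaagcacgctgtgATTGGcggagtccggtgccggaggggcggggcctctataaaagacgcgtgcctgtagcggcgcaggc

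In mm10 coordinates from GENCODE M21, Sqle lies on chromosome 15 at 59315077 to 59331192 (plus strand) and Cyp51 on chromosome 5 at 4081145 to 4104746 (minus strand). Idi1 lies on chromosome 13 at 8885501 to 8892451, Sc5d on chromosome 9 at 42251595 to 42264256, Mylip on chromosome 13 at 45389742 to 45412022 and Abcg1 on chromosome 17 at 31057675 to 31117988. Exons of Sqle, Sc5d, Mylip and Abcg1 overlap no other annotated gene, and 3.76% of the exon length of Cyp51 overlaps Akap9 on the other strand.

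The LXR and efflux genes, which share regulators with Mylip, were not called in LT-HSCs by edgeR or DESeq2, with 1 of 4 (Abcg1) higher at an unadjusted p under 0.05. All 4 log2 fold changes were positive, from 0.10 to 0.93, with a median of 0.45, though that of Nr1h3 turned negative with upper-quartile scaling. Abcg1 had 145, 98.2 and 111 CPM in the AML1-ETO LT-HSC libraries, compared with 61.3, 29.4, 103 and 72.3 CPM in those of control LT-HSCs, so that the groups overlapped by 1 control sample (edgeR adjusted p = 0.154). Abca1 had 52.4, 56.4 and 67.4 CPM in the AML1-ETO LT-HSC libraries, compared with 51.4, 33.7, 54.2 and 60.99 CPM in those of control LT-HSCs.

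Soat1, which esterifies cholesterol for storage, had 5.12, 5.13 and 8.97 CPM in the AML1-ETO LT-HSC libraries, compared with 33.5, 19.4, 32.8 and 13.0 CPM in those of control LT-HSCs. The groups did not overlap, and the difference narrowly missed the threshold (-1.85 ± 0.52, edgeR adjusted p = 0.0512; 0.0435 without control replicate 4). Npc1, which exports cholesterol from lysosomes, had 70.6, 85.9 and 76.2 CPM in the AML1-ETO LT-HSC libraries, compared with 43.9, 36.6, 53.2 and 59.2 CPM in those of control LT-HSCs (0.78 ± 0.22, edgeR adjusted p = 0.0535; 0.0484 without control replicate 3). Its partner Npc2 had a log2 fold change of 0.06 ± 0.27. Stard4, a cytosolic sterol carrier under SREBP2, had one of -0.70 ± 0.24 with groups that did not overlap (edgeR adjusted p = 0.0974; 0.0403 without control replicate 2).

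Several marker lists moved with these values, and their part in the results was not tested. The LT-HSC and GMP markers were among them: 3 of 10 LT-HSC genes fell (Mecom, Ctnnal1 and Mllt3) and 0 rose by edgeR, while 5 of 9 GMP genes tested rose (Mpo, Ctsg, Gfi1, Cebpe and Fcgr3) and 1 fell (Prtn3). The 10 GMP genes summed to 1077 to 1412 CPM in the AML1-ETO LT-HSC libraries, with Elane at 0, compared with 136 to 421 CPM in those of control LT-HSCs, with Cebpe and Csf1r at 0. The GMP sum was thus higher in every AML1-ETO library, at a small part of its level in sorted GMPs. The 10 cell cycle genes summed to 574 to 767 CPM in the AML1-ETO LT-HSC libraries, compared with 1289 to 2883 CPM in those of control LT-HSCs, and 9 of 10 fell. The 10 B and plasma cell genes summed to 110 to 641 CPM in AML1-ETO LT-HSCs, with Ms4a1 and Igll1 at 0, against 13060 to 77010 CPM in control LT-HSCs, and 5 of 9 tested fell. The 10 erythroid genes summed to 434 to 500 CPM in the AML1-ETO LT-HSC libraries, compared with 1063 to 2824 CPM in those of control LT-HSCs, and 5 of 10 fell. The sums of these 3 lists were lower in every AML1-ETO library than in any control library. The 10 mast cell and basophil genes summed to 8968 to 11240 CPM in the AML1-ETO LT-HSC libraries, compared with 414 to 665 CPM in those of control LT-HSCs, where Fcer1a, Prss34 and Mcpt4 were at 0, and 9 of 9 tested rose.

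The number of calls depended on the method. DESeq2's Wald test called 14 of the 31 genes in LT-HSCs (12 lower and 2 higher) and a single fit of all 14 samples also called 14 (12 lower and 2 higher), against 5 above. Of all 14589 genes, DESeq2 called 1320 higher and 1475 lower, against 1107 and 684 by edgeR. The single fit called 1669 higher and 1497 lower of 16116 genes. Without control LT-HSC replicate 3, edgeR called 7, with Npc1, Lss and Fdft1 added and Idi1 lost. Without any 1 of the 3 AML1-ETO libraries it called 2, Sqle and Cyp51. Those fits called 223 to 404 genes higher and 111 to 285 lower over all genes, and the fit without control replicate 3 called 1373 and 1003. All 11 late genes kept a negative sign under every other setting tried that used all 7 libraries or all 14.

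**Figure D2:**
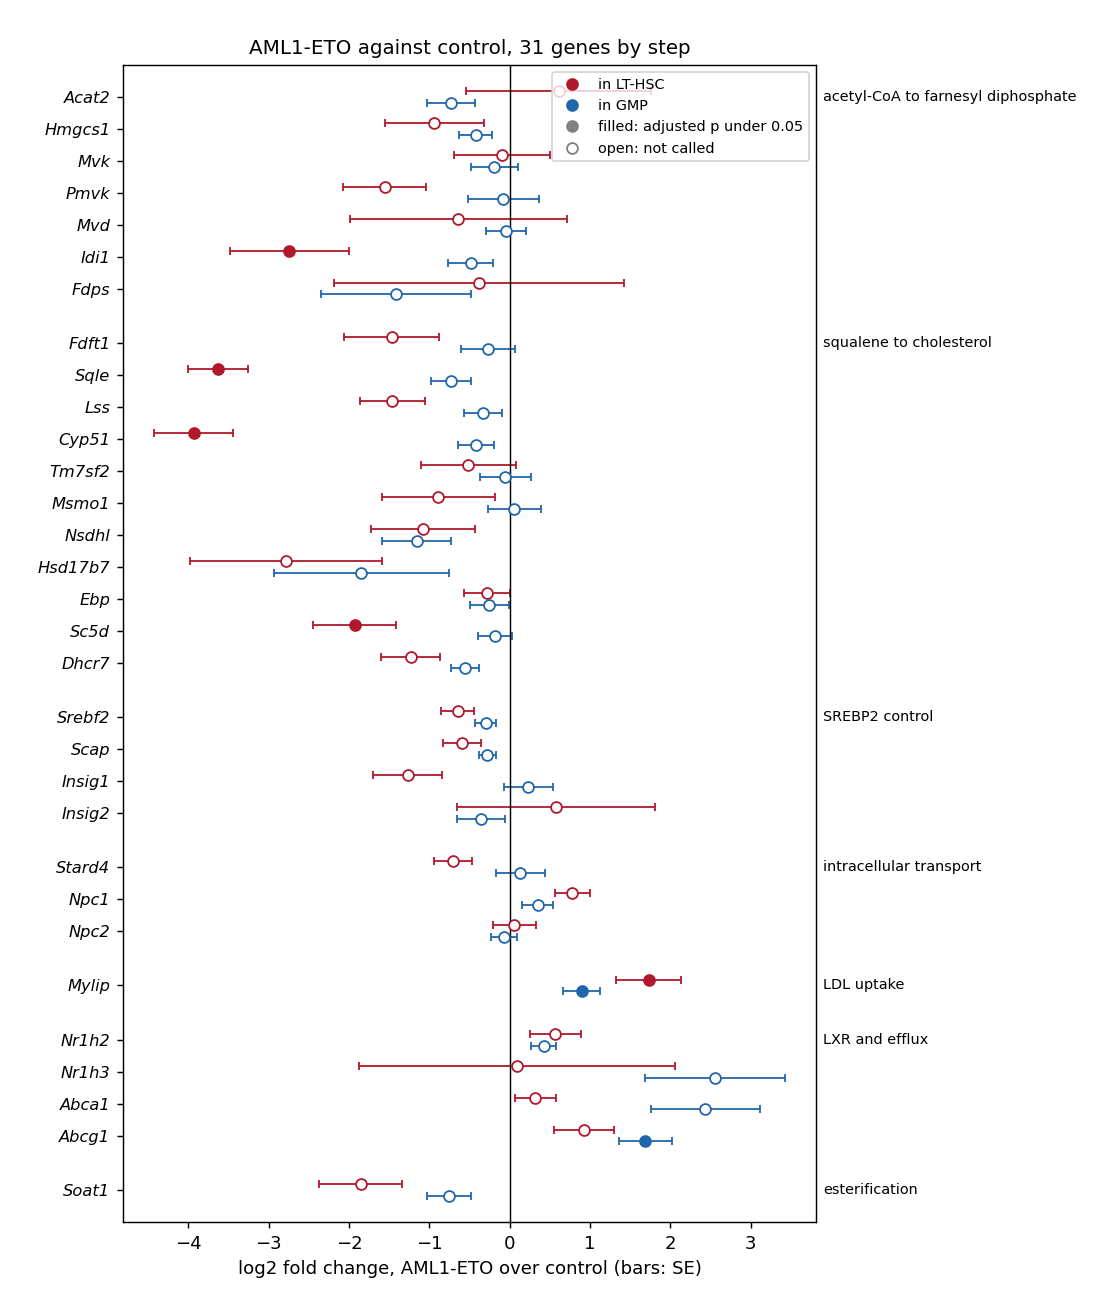
Log2 fold change of AML1-ETO over control (horizontal axis, bars are SE) for the 31 genes, grouped by step down the vertical axis, in LT-HSCs (red, n = 3 against 4) and in GMPs (blue, n = 3 against 4); filled points are called. The red points of Sqle and Cyp51 lie furthest left, at -3.63 and -3.93, with their blue points at -0.73 and -0.42. The label LDL uptake marks Mylip, which acts in LDL receptor breakdown.

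The second comparison asked the same of GMPs. There edgeR called no synthesis gene. The genes it called act in efflux and in LDL receptor breakdown, and they were about as frequent as rises among all genes. Of the 31 genes, 2 rose (Abcg1 and Mylip) and 0 fell by edgeR's quasi-likelihood test on the 7 GMP samples, where 5.47% of 13981 genes tested rose and 3.96% fell. At an unadjusted p under 0.05, 5 were higher and 6 lower, and DESeq2 called 5 higher and 1 lower, with Nr1h2, Nr1h3, Abca1 and Dhcr7 added. Of all 13981 genes DESeq2 called 1371 higher and 937 lower, and the share at that unadjusted p was not counted. The median log2 fold change was -0.25 over the 31 genes and -0.03 over all genes.

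Abcg1, an exporter of cholesterol to lipoproteins and an LXR target, had 60.5, 26.2 and 40.7 CPM in the AML1-ETO GMP libraries, compared with 10.9, 14.3, 9.85 and 18.2 CPM in those of control GMPs. Every AML1-ETO sample was above every control, and replicate 1 was the highest. The log2 fold change was 1.69 ± 0.33 (3.23-fold higher, edgeR adjusted p = 0.023). Mylip had 40.0, 45.7 and 68.5 CPM in the AML1-ETO GMP libraries, compared with 28.6, 34.5, 25.5 and 22.9 CPM in those of control GMPs, again without overlap (0.90 ± 0.23, edgeR adjusted p = 0.0473). Both calls were lost in the fits without any 1 of the 4 control libraries, in which Abcg1 had an adjusted p by edgeR of 0.0632 to 0.0892 and Mylip of 0.0812 to 0.156. Over all genes those fits called 116 to 182 higher and 12 to 27 lower, against 765 and 554 with all 7 libraries. Mylip also lost its call without AML1-ETO replicate 3 (0.63, edgeR adjusted p = 0.0745). Among 6 other settings Mylip kept its call in 2 and Abcg1 in 5. Mylip lost it with upper-quartile scaling, no filter, a replicate block or all 14 samples in 1 fit (edgeR adjusted p up to 0.319).

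The other 3 genes of the LXR and efflux group also had positive log2 fold changes in GMPs, and were called by DESeq2 but not by edgeR. Abca1, the exporter to apolipoprotein A1, had 32.8, 6.14 and 11.1 CPM in the AML1-ETO GMP libraries, compared with 2.40, 5.43, 1.23 and 3.37 CPM in those of control GMPs. The groups did not overlap, but replicate 2 lay close to the highest control (2.44 ± 0.68, edgeR adjusted p = 0.0642). Without AML1-ETO GMP replicate 1 its log2 fold change was 1.48 (edgeR adjusted p = 0.131), and without replicate 2 it was called at 2.82 (edgeR adjusted p = 0.0207). Nr1h3, which encodes LXR alpha, had 31.3, 2.09 and 3.73 CPM in the AML1-ETO GMP libraries, compared with 2.08, 1.93, 2.20 and 2.26 CPM in those of control GMPs, so that replicate 1 stood far above the controls, replicate 3 slightly above and replicate 2 among them (2.56 ± 0.87, edgeR adjusted p = 0.114). Nr1h2, which encodes LXR beta, had 142, 213 and 145 CPM in the AML1-ETO GMP libraries, compared with 129, 136, 116 and 120 CPM in those of control GMPs (0.43 ± 0.16, edgeR adjusted p = 0.136).

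The macrophage list moved with these genes. Its 10 genes summed to 1720, 150 and 320 CPM in the AML1-ETO GMP libraries, compared with 71.6 to 98.4 CPM in those of control GMPs, none was at 0 in either group, and 8 of 9 tested rose. The sample with the highest macrophage sum, replicate 1, was also the highest for Abca1, Abcg1 and Nr1h3, while replicate 3 was the highest for Mylip. Without replicate 1, Abcg1 had a log2 fold change of 1.34 (edgeR adjusted p = 0.0265), and the macrophage sums of the remaining AML1-ETO libraries were still above those of all controls. The part of these markers was not tested. The 10 LT-HSC genes summed to 59.4, 40.4 and 427 CPM in the AML1-ETO GMP libraries, compared with 47.9 to 57.1 CPM in those of control GMPs, and 2 of 9 tested rose (Slamf1 and Fgd5). Replicate 3, the highest for Mylip, was thus also the highest for LT-HSC markers, with Hoxb5 at 0 in all AML1-ETO GMPs, and the part of these in the Mylip result was not tested. The 10 mast cell and basophil genes summed to 2642 to 3907 CPM in the AML1-ETO GMP libraries, compared with 592 to 780 CPM in those of control GMPs, where Mcpt4 and Tpsb2 were at 0, and 7 of 9 tested rose. The 10 erythroid genes summed to 208 to 2977 CPM in AML1-ETO GMPs, highest in replicate 1, against 234 to 279 CPM in control GMPs, and 3 of 10 rose. The part of both lists was not tested.

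Rxra, the shared partner of both LXRs and one of 38 other pathway genes listed beside the 31, was called in both cell types. It had 80.2, 99.8 and 85.9 CPM in the AML1-ETO LT-HSC libraries, compared with 38.7, 19.9, 46.1 and 42.7 CPM in those of control LT-HSCs (1.36 ± 0.30, edgeR adjusted p = 0.0227). It had 6.69, 53.1 and 41.0 CPM in the AML1-ETO GMP libraries, compared with 6.30, 6.23, 5.90 and 4.47 CPM in those of control GMPs (2.57 ± 0.59, edgeR adjusted p = 0.033). Here AML1-ETO GMP replicate 1, the highest sample for Abca1 and Nr1h3, lay at the level of the controls. The call in LT-HSCs was lost without any 1 AML1-ETO library (adjusted p = 0.080, 0.126 and 0.0722 by edgeR, in replicate order). That in GMPs was lost without AML1-ETO replicate 2 or 3 (edgeR adjusted p = 0.0507 and 0.0584) or without any 1 control library (0.0995 to 0.118).

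**Figure D3:**
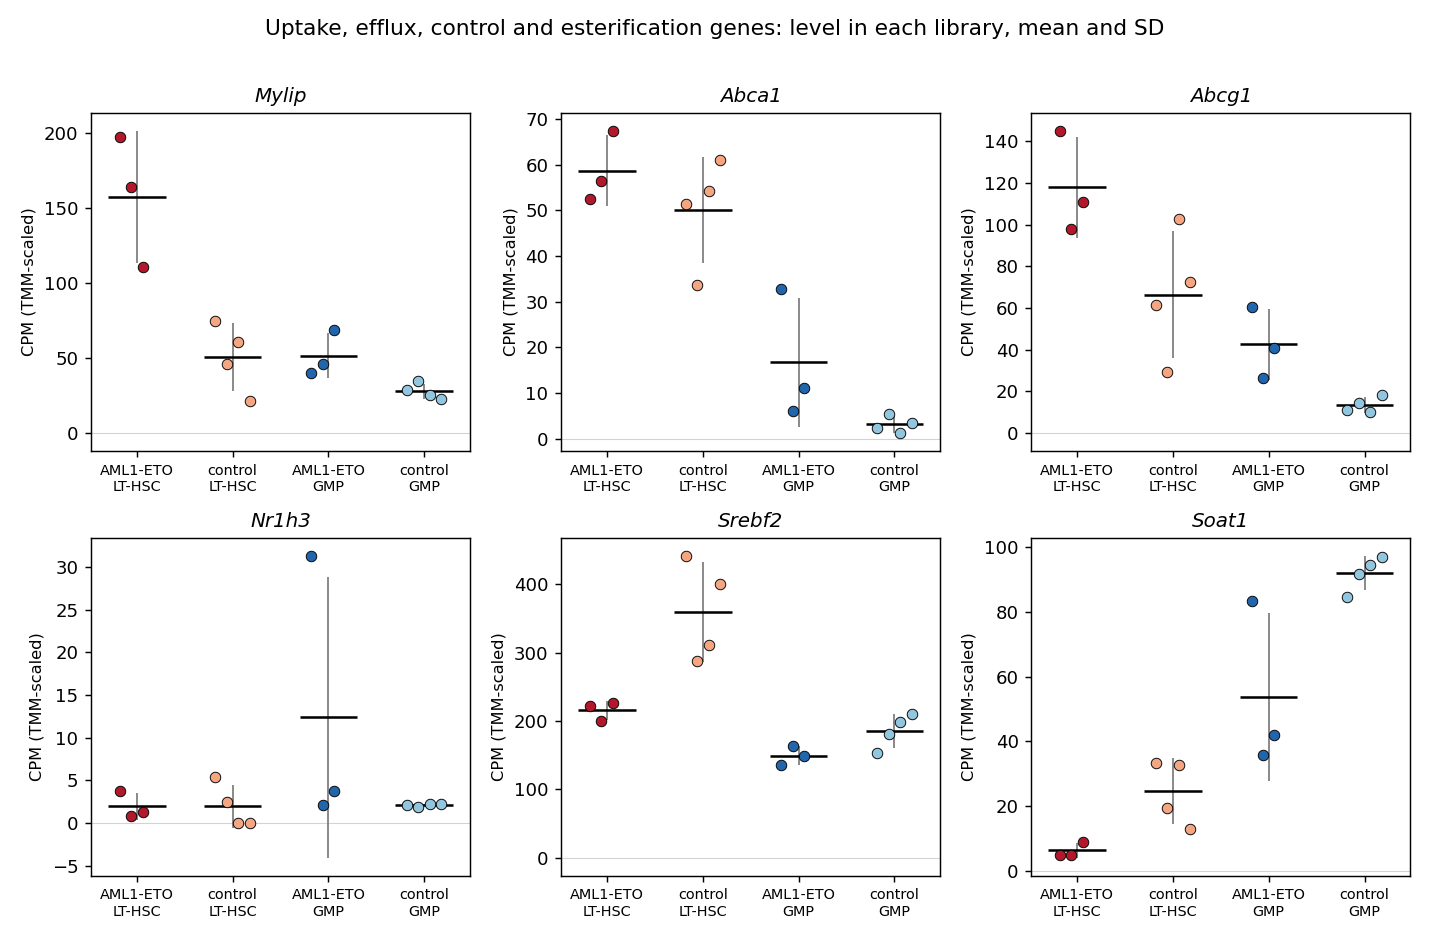
Level (TMM-scaled CPM, vertical axis) of 6 genes in each of the 14 libraries, by group. The genes act in LDL receptor breakdown, efflux, SREBP2 control and esterification. Horizontal lines are group means and vertical lines are 1 SD to each side. In AML1-ETO GMPs the value of 1 library, replicate 1, sits far above the rest for Nr1h3 (31.3 CPM) and Abca1 (32.8 CPM), while Mylip and Abcg1 have all AML1-ETO GMP libraries above all control GMP libraries.

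The synthesis genes of GMPs mostly had small negative values. Of the 11 late genes, 10 had negative log2 fold changes with a median of -0.33, none was called by edgeR, 3 were lower at an unadjusted p under 0.05 and DESeq2 called 1 (Dhcr7). All 7 early genes had negative log2 fold changes with a median of -0.42, with 0 called by edgeR or DESeq2 and 1 (Acat2) lower at an unadjusted p under 0.05. Sqle had 32.3, 25.5 and 17.3 CPM in the AML1-ETO GMP libraries, compared with 39.5, 32.4, 49.2 and 47.2 CPM in those of control GMPs (-0.73 ± 0.25, edgeR adjusted p = 0.114). Cyp51 had 30.5, 26.2 and 24.8 CPM in the AML1-ETO GMP libraries, compared with 33.6, 26.1, 48.7 and 39.1 CPM in those of control GMPs, with overlapping groups (-0.42 ± 0.23, edgeR adjusted p = 0.309). The groups of Sqle did not overlap, by a narrow margin. Dhcr7 had 32.3, 28.2 and 34.7 CPM in the AML1-ETO GMP libraries, compared with 42.9, 39.3, 53.4 and 53.1 CPM in those of control GMPs, without overlap (-0.55 ± 0.17, edgeR adjusted p = 0.0838). Nsdhl, a dehydrogenase that helps to remove methyl groups from the sterol ring, had 3.61, 14.04 and 11.6 CPM in the AML1-ETO GMP libraries, compared with 19.3, 20.04, 24.1 and 24.6 CPM in those of control GMPs (-1.16 ± 0.43, edgeR adjusted p = 0.141).

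The SREBP2, transport and esterification groups held no gene that edgeR called in GMPs. The 4 genes that control SREBP2 had a median log2 fold change of -0.29, with 0 calls by edgeR or DESeq2 and 1 (Scap) lower at an unadjusted p under 0.05. The 3 transport genes had log2 fold changes of -0.07 to 0.35, with 0 calls by edgeR or DESeq2 and 0 at an unadjusted p under 0.05. Soat1 had 83.3, 35.9 and 41.9 CPM in the AML1-ETO GMP libraries, compared with 84.5, 91.7, 94.5 and 96.8 CPM in those of control GMPs (-0.76 ± 0.27, edgeR adjusted p = 0.134). In the fit without AML1-ETO replicate 1 edgeR called 6 of the 31 genes, adding Soat1, Sqle, Acat2 and Nsdhl as lower. Without AML1-ETO replicate 2 it called 4, adding Abca1 and Nr1h3, and without AML1-ETO replicate 3 it called 4, adding Scap, Pmvk and Hsd17b7 as lower and losing Mylip. Without any 1 control library it called 0. Over all genes, the fits without 1 control library called 116 to 182 higher and 12 to 27 lower. Those without 1 AML1-ETO library called 913 to 1550 higher and 959 to 1964 lower, against 765 and 554 with all 7 libraries. The 10 cell cycle genes summed to 2557 to 3168 CPM in the AML1-ETO GMP libraries, compared with 3152 to 3472 CPM in those of control GMPs, and 3 of 10 fell. The part of the cell cycle genes was not tested.

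Whether the effect of the fusion differed between the cell types was tested directly as an interaction in 1 fit of all 14 samples. For 3 of the 31 genes the effect in GMPs was higher than that in LT-HSCs, and for 0 it was lower by edgeR or DESeq2, or at an unadjusted p under 0.05. DESeq2 called 6, adding Idi1, Abca1 and Insig1. Over 16116 genes tested, edgeR called 3.43% higher and 2.91% lower, and DESeq2 called 1090 genes higher and 691 lower. The 3 genes were all of the late branch. The interaction was 2.98 ± 0.39 for Sqle (edgeR adjusted p = 0.00102) and 3.59 ± 0.49 for Cyp51 (edgeR adjusted p = 0.00139), on the log2 scale. Both were called in all 14 fits that left out 1 library, with highest adjusted p-values by edgeR of 0.00673 and 0.00791. For Sc5d it was 1.83 ± 0.51 (edgeR adjusted p = 0.0465), a call that held in 3 of the 14 such fits, those without control LT-HSC replicate 1, control LT-HSC replicate 3 or AML1-ETO GMP replicate 3, with adjusted p-values of 0.0691 to 0.122 in the other 11. Idi1 had 2.35 ± 0.72 (edgeR adjusted p = 0.0697), Abca1 2.19 ± 0.73 (0.0952) and Insig1 1.58 ± 0.54 (0.0996), and none of these was called. Idi1 was called without control LT-HSC replicate 1 or 4, Insig1 without AML1-ETO GMP replicate 3 and Abca1 without AML1-ETO GMP replicate 2. For Mylip the interaction was -0.75 ± 0.49 with a 95% interval of -1.84 to 0.33, which spans 0. All 11 late genes had a positive interaction (median 1.02), and Nsdhl, at 0.02, turned negative with upper-quartile scaling. Of the marker lists, 9 of 10 cell cycle genes, 9 of 10 erythroid genes and 7 of 10 B and plasma cell genes were called higher in the same interaction, as were 4 of 10 LT-HSC genes, while 5 of 10 GMP genes and 5 of 10 mast cell and basophil genes were called lower. Their part was not tested.

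The third comparison set GMPs against LT-HSCs within each genotype, in the same fit. In AML1-ETO mice 7 of the 31 genes were higher and 4 lower in GMPs, against 12.6% and 9.15% of 16116 genes tested. In control mice 2 were higher and 5 lower, against 13.9% and 10.6% of the same genes. There 56.9% of all calls were higher in GMPs, or 44.9% with DESeq2's size factors and 40.6% by DESeq2. The median log2 fold change was 0.77 in AML1-ETO mice and 0.08 in control mice over the 31 genes, and 0 and 0.02 over all genes. With DESeq2's size factors these were 0.65 and -0.09 over the 31 genes and -0.10 and -0.12 over all genes.

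Among synthesis genes, those higher in GMPs of AML1-ETO mice were the 4 that fell in AML1-ETO LT-HSCs, and the same AML1-ETO LT-HSC libraries enter both comparisons. In AML1-ETO mice Cyp51 (3.56 ± 0.40, edgeR adjusted p = 4.18e-05), Sqle (3.18 ± 0.31, 1.6e-05), Idi1 (2.54 ± 0.57, 0.00556) and Sc5d (1.92 ± 0.40, 0.0033) were higher in GMPs than in LT-HSCs. In control mice the same genes had log2 fold changes of -0.03 ± 0.31, 0.21 ± 0.24, 0.19 ± 0.46 and 0.08 ± 0.33, with 95% intervals within -0.84 to 1.21. No gene of the late branch was called in control mice by edgeR or DESeq2, and 1 (Ebp) was higher at an unadjusted p under 0.05. Insig1 was higher in GMPs of AML1-ETO mice (1.66 ± 0.41, edgeR adjusted p = 0.0105), a call that needed AML1-ETO LT-HSC replicate 3 (edgeR adjusted p = 0.0502 without it), and had 0.08 ± 0.35 in control mice. The 10 cell cycle genes moved with cell type as well, 9 of 10 higher in GMPs of AML1-ETO mice and 7 of 10 in GMPs of control mice. The LT-HSC markers were lower in GMPs for 3 of 10 genes in AML1-ETO mice and 10 of 10 in control mice, and the GMP markers higher for 8 of 10 and 10 of 10. The part of these lists was not tested.

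Other genes moved with cell type in both genotypes. Soat1 was higher in GMPs, by 3.06 ± 0.41 in AML1-ETO mice (edgeR adjusted p = 0.000148) and 1.90 ± 0.34 in control mice (0.00116). Npc2, the soluble lysosomal sterol carrier, was higher by 1.24 ± 0.25 in AML1-ETO mice (edgeR adjusted p = 0.0027) and by 1.28 ± 0.22 in control mice (0.000758). Both were higher in every GMP library than in any LT-HSC library of the same genotype. Abca1 was lower in GMPs, with a log2 fold change of -1.82 ± 0.56 in AML1-ETO mice (edgeR adjusted p = 0.0316) and of -4.00 ± 0.53 in control mice (0.000129; 16.0-fold lower). Abcg1 was lower as well, with -1.47 ± 0.40 in AML1-ETO mice (edgeR adjusted p = 0.0178) and -2.32 ± 0.36 in control mice (0.000439). Srebf2 was lower, with -0.53 ± 0.18 in AML1-ETO mice (edgeR adjusted p = 0.0471) and -0.96 ± 0.16 in control mice (0.000623).

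The genes called in 1 genotype alone were not shown to differ between the genotypes unless the interaction above says so. Mylip was lower in GMPs of AML1-ETO mice (-1.61 ± 0.38, edgeR adjusted p = 0.00706) and had -0.86 ± 0.32 in control mice (0.0644). Stard4 was lower in GMPs of control mice (-0.99 ± 0.27, edgeR adjusted p = 0.0149) and had -0.08 ± 0.30 in AML1-ETO mice. Nr1h2 was lower in GMPs of control mice (-0.73 ± 0.24, edgeR adjusted p = 0.0402) and had -0.79 ± 0.28 in AML1-ETO mice (0.058).

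Some of these calls were lost in fits that left out 1 library. In AML1-ETO mice Srebf2 lost its call in each of the 6 fits without 1 of its libraries (adjusted p = 0.0619 to 0.15 by edgeR). Abca1 lost it in 5 of 6, all but that without GMP replicate 1 (0.0597 to 0.101; -2.75 without GMP replicate 1). Abcg1 lost it without LT-HSC replicate 1, GMP replicate 2 or GMP replicate 3 (0.0682, 0.0733 and 0.0536). In control mice Nr1h2 kept its call in 1 of 8 such fits, that without LT-HSC replicate 3 (0.0645 to 0.1 in the others). Leaving out control LT-HSC replicate 3 also took the calls in control mice to 11, adding Ebp, Hmgcs1, Acat2 and Mvk as higher in GMPs. Over all genes that fit called 2492 higher and 2092 lower, against 2247 and 1702 with all libraries.

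**Figure D4:**
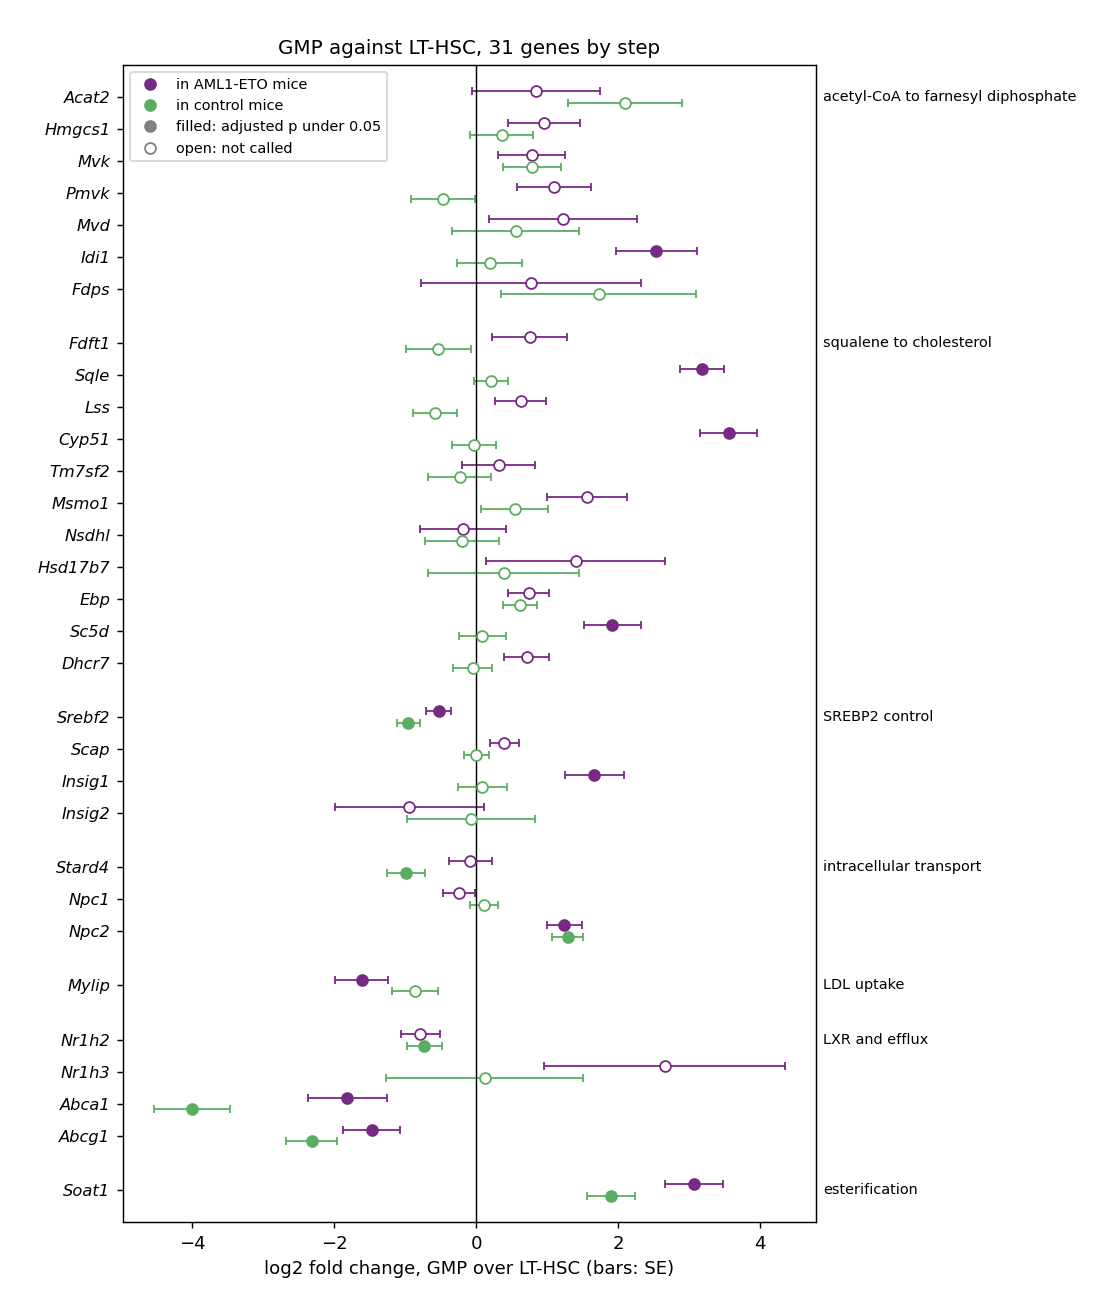
Log2 fold change of GMP over LT-HSC (horizontal axis, bars are SE) for the 31 genes by step, in AML1-ETO mice (purple, n = 3 against 3) and in control mice (green, n = 4 against 4); filled points are called. Sqle and Cyp51 stand at 3.18 and 3.56 in AML1-ETO mice and at 0.21 and -0.03 in control mice, while Abca1 and Abcg1 are left of 0 in both. The label LDL uptake marks Mylip, which acts in LDL receptor breakdown.

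Within each group, levels can be ordered across genes only per length of exon. The levels that follow are CPM per kilobase, as means ± SD over the samples of a group, described without a test. Nr1h2 was highest in LT-HSCs, at 85.8 ± 39.4 in AML1-ETO and 62.1 ± 11.3 in control samples, and in each group the next gene, Mylip at 48.7 ± 13.6 in AML1-ETO and Srebf2 at 50.1 ± 10.2 in control samples, had an SD range that overlapped its own. In AML1-ETO GMPs Nr1h2 (49.7 ± 11.96) and Npc2 (48.2 ± 11.2) led and did not differ beyond their spread. In control GMPs Npc2 (51.1 ± 4.38) stood above Nr1h2 (37.4 ± 2.74) by more than the spread of either.

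The synthesis genes held different places in the 4 groups. In AML1-ETO LT-HSCs Idi1 (0.643 ± 0.0149 CPM per kilobase), Cyp51 (0.522 ± 0.0794) and Sqle (0.496 ± 0.0408) were followed only by Fdps (0.229 ± 0.231) and Hsd17b7 (0.221 ± 0.156). In control LT-HSCs Cyp51 (8.53 ± 3.52) and Sqle (6.58 ± 1.12) stood near the middle of the order, with Dhcr7 (8.40 ± 3.98) between them and all within each other's spread. In AML1-ETO GMPs Cyp51 stood at 6.15 ± 0.677 and Sqle at 4.51 ± 1.35, and in control GMPs Cyp51 stood at 8.35 ± 2.15 and Sqle at 7.59 ± 1.39. Abca1 was the lowest of all in control GMPs, at 0.2998 ± 0.171.

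The other pathway genes were called between AML1-ETO and control about as often as genes in general. In LT-HSCs 3 of 36 tested rose and 1 fell, where 7.59% and 4.69% of all genes tested did. These were Gramd1b, an endoplasmic reticulum sterol transporter, Nceh1, which hydrolyses cholesterol esters, Rxra, and, as the 1 that fell, Pgrmc2. Gramd1b had 514, 336 and 218 CPM in the AML1-ETO LT-HSC libraries, compared with 128, 63.9, 75.7 and 69.6 CPM in those of control LT-HSCs (2.18 ± 0.36, edgeR adjusted p = 0.00826), and was called in all 7 fits without 1 library. Nceh1 had 171, 271 and 207 CPM in the AML1-ETO LT-HSC libraries, compared with 127, 65.4, 34.3 and 32.2 CPM in those of control LT-HSCs (1.83 ± 0.48, edgeR adjusted p = 0.0422), and kept its call in 1 of 7 such fits, that without control replicate 1 (adjusted p = 0.0517 to 0.159 in the others). Both genes were higher in every AML1-ETO library than in any control library. Pgrmc2 had 28.2, 23.9 and 32.7 CPM in the AML1-ETO LT-HSC libraries, compared with 47.1, 59.0, 74.4 and 60.5 CPM in those of control LT-HSCs (-0.99 ± 0.24, edgeR adjusted p = 0.0334), a call lost without any 1 AML1-ETO library or control replicate 4 (0.0593 to 0.155). In GMPs the 1 gene called of 35 tested was Rxra, which rose, where 5.47% of all genes rose and 3.96% fell.

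Of 36 other pathway genes tested between the cell types, 9 were higher and 5 lower in GMPs of AML1-ETO mice, and 4 were higher and 10 lower in GMPs of control mice. The shares over all genes were 12.6% higher and 9.15% lower for AML1-ETO mice, and 13.9% higher and 10.6% lower for control mice. Tmem97, a sterol-binding membrane protein, was higher in GMPs of AML1-ETO mice (2.68 ± 0.48, edgeR adjusted p = 0.00119) and of control mice (1.46 ± 0.39, 0.0154). Scarb1, the receptor for high-density lipoprotein, was also higher in both (1.03 ± 0.18, edgeR adjusted p = 0.00108, in AML1-ETO mice, and 1.04 ± 0.16, 0.000352, in control mice). The other genes higher in GMPs of control mice were Osbp, an oxysterol-binding protein (0.52 ± 0.13, edgeR adjusted p = 0.0122), and Rxrb, a retinoid receptor that pairs with the LXRs (0.49 ± 0.13, 0.0164), which was not called with DESeq2's size factors, with upper-quartile scaling or by DESeq2. The other genes named of those higher in AML1-ETO mice were Stard5, a sterol carrier (1.42 ± 0.47, edgeR adjusted p = 0.0428), Lipa, the lysosomal acid lipase (1.08 ± 0.35, edgeR adjusted p = 0.0416), and Lrp1, a lipoprotein receptor. Lrp1 had 315, 46.9 and 63.3 CPM in AML1-ETO GMPs and 3.99, 0.153 and 4.51 CPM in AML1-ETO LT-HSCs (5.59 ± 1.41, edgeR adjusted p = 0.0114), and lost its call without AML1-ETO GMP replicate 1 (edgeR adjusted p = 0.0566). Stard5 kept its call in 1 of 6 fits without 1 library, that without AML1-ETO GMP replicate 2 (edgeR adjusted p up to 0.144). Lipa lost its call without GMP replicate 1, where its log2 fold change was 0.36 (edgeR adjusted p = 0.31), or without any 1 LT-HSC library (0.0578 to 0.135). Among 6 other settings Stard5 kept its call in 2 and Lipa in 1 (edgeR adjusted p up to 0.0726 and 0.257).

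The genes lower in GMPs included sterol transporters of the Gramd1 family in both genotypes. Gramd1b had -2.42 ± 0.31 in AML1-ETO mice (edgeR adjusted p = 0.000114) and -0.94 ± 0.26 in control mice (0.0177). Gramd1c had -1.69 ± 0.48 in AML1-ETO mice (edgeR adjusted p = 0.0215) and -2.03 ± 0.42 in control mice (0.00333). Its call in AML1-ETO mice was lost without LT-HSC replicate 1, LT-HSC replicate 2 or GMP replicate 2 (edgeR adjusted p up to 0.0857). Gramd1a had -0.89 ± 0.22 in AML1-ETO mice (edgeR adjusted p = 0.00923) and -0.79 ± 0.19 in control mice (0.00754). For all 3 genes every GMP library lay below every LT-HSC library of its genotype. Nceh1 had -2.53 ± 0.41 in AML1-ETO mice (edgeR adjusted p = 0.000647) and -1.09 ± 0.34 in control mice (0.0325). In control mice Rxra (-2.69 ± 0.47, edgeR adjusted p = 0.00108) and Soat2, a second esterifying enzyme (-2.42 ± 0.37, 0.000425), were also lower in GMPs. Rnf145, a sterol-responsive ubiquitin ligase, had -0.93 ± 0.29 in AML1-ETO mice (edgeR adjusted p = 0.036) and kept that call in 1 of 6 fits without 1 library, that without AML1-ETO GMP replicate 3 (up to 0.117 in the others). Cyp7b1, an oxysterol hydroxylase, was at 0 in all GMP libraries and at 0 to 9.03 CPM in control LT-HSCs, and lost its call (edgeR adjusted p = 0.0487) in 7 of 8 fits in control mice. Abcg4, an exporter related to Abcg1, was called lower in control mice (edgeR adjusted p = 0.0371) and lost that call without LT-HSC replicate 4 or any 1 GMP library (0.0686 to 0.0959). The interaction was called for Gramd1b (-1.48 ± 0.40, edgeR adjusted p = 0.0399), a call that held in 3 of 14 fits without 1 library, those without AML1-ETO LT-HSC replicate 3, control LT-HSC replicate 1 or control GMP replicate 3 (adjusted p up to 0.113 in the others).

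Srebf1, the gene of SREBP1, which drives fatty acid synthesis and is an LXR target, was called in the interaction in the other direction (0.76 ± 0.20, edgeR adjusted p = 0.0359). It had 111, 104 and 111 CPM in the AML1-ETO LT-HSC libraries, compared with 165, 183, 173 and 145 CPM in those of control LT-HSCs, without overlap. It had 159, 123 and 133 CPM in the AML1-ETO GMP libraries, compared with 114, 114, 133 and 139 CPM in those of control GMPs. The call held in 5 of 14 fits without 1 library, those without any 1 control LT-HSC library or without AML1-ETO GMP replicate 2 (edgeR adjusted p up to 0.115 in the others).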

How the data were processed

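RNA was sequenced from sorted LT-HSCs and GMPs in 14 libraries. The deposited table holds whole-number read counts per gene symbol for 54532 lines, not normalized. Per the submitters' processing notes the authors used HISAT2 2.0.5, featureCounts 1.5.0-p3 and mm10. Whether counting used strand, and on which annotation, is not given in the sources used here. Per the labels' protocols, RNA came from RNeasy Plus Micro columns, and SMART-Seq v4 and SMARTer Stranded kits are listed without saying which served which library. The labels mention no molecular identifiers, so counts may not be independent molecules. Totals of 13210952 to 19403864 counts set the depth.

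From these counts, edgeR 4.0.16 in R 4.3.3 fitted the quasi-likelihood model with TMM scaling, filterByExpr and two-sided tests. AML1-ETO was tested against control on the 7 libraries of each cell type. GMP against LT-HSC and the interaction came from all 14. P-values were adjusted by Benjamini-Hochberg over all genes tested, with calls under 0.05. SEs come from the fold change and its F statistic, and intervals are at 95%. CPM use the TMM factors of the 14-library fit. DESeq2 1.42.0 served as an alternative, as did other scalings, no filter, a replicate block, other sample sets and leaving out each library. Pipelines were tested on simulated data. No libraries agreed within sampling noise.

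All 31 genes were named, and of the 38 other pathway genes at most the 5 called ones with the largest change in each direction per comparison, with their values in the other genotype or cell type. The 31 genes, the lists and the tests were chosen with earlier results of these data known. Exon lengths, coordinates and overlaps were read from GENCODE M21 (mm10), near-identical transcripts with blastn 2.17.0+ (95% identity over 200 bases or more), and promoters from RefSeq on GRCm38.p6. Npc1, Sqle, Fdft1, Abcg1, Stard4 and Fdps have no entry in that promoter table. Figures were drawn with matplotlib 3.10.9.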

Additional observations from a re-analysis of the deposited data

Results flagged for a closer look

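Of 62 sets of 4 control values checked over the 31 genes, 2 held a library far from the other 3, where chance gives about 1 in 20. Ebp, the sterol isomerase, stood at 60.97 CPM in control GMP replicate 3, against 47.9 to 49.5 CPM in the other control GMPs. Dhcr7 stood at 83.21 CPM in control LT-HSC replicate 3, against 33.6 to 41.8 CPM in the other control LT-HSCs.

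The effect of AML1-ETO differed between GMPs and LT-HSCs by edgeR's interaction test for 3 of the 31 genes and for 2 of 36 other pathway genes tested, where 3.43% of 16116 genes were called higher and 2.91% lower. The interaction was 2.98 for Sqle (edgeR adjusted p = 0.00102), 3.59 for Cyp51 (edgeR adjusted p = 0.00139) and 1.83 for Sc5d (edgeR adjusted p = 0.0465) on the log2 scale, higher in GMPs. It was 0.76 for Srebf1 (edgeR adjusted p = 0.0359) and -1.48 for Gramd1b (edgeR adjusted p = 0.0399).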

How the results depend on the processing

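For the called genes of the 31, those with an adjusted p under 0.1 between AML1-ETO and control, and the other pathway genes named, 310 of 377 values under settings that kept all libraries of their fit, and 347 of 478 values that left out 1 library, had the direction and the side of the threshold reported. None of these values reversed, while uncalled genes among the 31 changed sign under some settings (in LT-HSCs Nr1h3 and Npc2 with upper-quartile scaling, and Mvd, Fdps and Npc2 with the replicate block). In LT-HSCs, AML1-ETO against control gave 5 called genes of the 31, but 9 with upper-quartile scaling, 3 with no filter on low counts, 14 by DESeq2, 14 in a fit of all 14 samples, and 2 to 7 without 1 library. In GMPs it gave 2, but 1 with upper-quartile scaling, 1 with no filter, 6 by DESeq2, and 0 to 6 without 1 library. GMP against LT-HSC gave 7 in control mice (6 to 11 without 1 library) and 11 in AML1-ETO mice (8 to 10 without 1 library). The interaction gave 3, but 6 by DESeq2, and 2 to 4 without 1 library. Calls over all genes moved as well. In LT-HSCs they were 1107 higher and 684 lower, but 1320 and 1475 by DESeq2 and 223 and 111 without AML1-ETO replicate 2. There they were 912 and 853 with upper-quartile scaling and 821 and 558 with no filter. In GMPs they were 765 and 554, but 1371 and 937 by DESeq2 and 123 and 12 without control replicate 1. They were 723 and 648 with upper-quartile scaling and 556 and 260 with no filter. Without 1 library, GMP against LT-HSC called 1505 to 2492 higher and 1103 to 2092 lower in control mice. In AML1-ETO mice such fits called 1294 to 1901 higher and 798 to 1397 lower. The interaction called 552 higher and 469 lower, but 1090 and 691 by DESeq2. Without 1 library it called 235 to 735 higher and 236 to 742 lower. The causes were not tested.

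Same-numbered samples did not deviate together throughout. The correlation of their deviations was 0.091, 0.161 and 0.109 between AML1-ETO LT-HSCs and GMPs, where each sample matched its own number best, and -0.0388 to 0.0182 between control LT-HSCs and GMPs. Between the genotypes the correlation was -0.0765 to -0.0484 in LT-HSCs and 0.0141 to 0.0359 in GMPs. With the replicate block, AML1-ETO against control gave 3 calls in LT-HSCs and 0 in GMPs, GMP against LT-HSC gave 9 in AML1-ETO mice and 7 in control mice, and the interaction gave 2. Over all genes, AML1-ETO against control with the block called 312 higher and 213 lower in LT-HSCs, against 1107 and 684 without it. In GMPs it called 107 higher and 5 lower, against 765 and 554. GMP against LT-HSC with the block called 1465 higher and 1163 lower of 14180 genes in AML1-ETO mice. In control mice it called 1149 higher and 1169 lower of 13585 genes. The interaction with the block called 300 higher and 208 lower of 16116 genes. With that block the early synthesis genes in LT-HSCs had 3 positive and 4 negative log2 fold changes with a median of -0.11, and Idi1 was not called (edgeR adjusted p = 0.162).

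Mvd, Fdps, Insig2 and Nr1h3, at 0 in control LT-HSC replicate 3, had SEs of 1.36, 1.80, 1.23 and 1.97 on the log2 scale in LT-HSCs for AML1-ETO against control. The cause of these wide errors was not tested.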
